A study of Homo sapiens with 12 samples.

Results

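HuH-28, RBE and SSP-25 are established human lines that the labels call intrahepatic cholangiocarcinoma (ICC), a cancer of the bile ducts inside the liver. The comparison described here asked which genes answered the knockdown of LKB1 in HuH-28 otherwise than in RBE and SSP-25. It set the response of HuH-28, LKB1 siRNA against control siRNA, against the mean of the same responses in RBE and SSP-25, over all 12 libraries of the series, of which 4 were of HuH-28. Polyadenylated RNA was sequenced 48 h after transfection, with 2 libraries in each of 6 groups, namely HuH-28 with LKB1 siRNA, HuH-28 with control siRNA, and the same pair in RBE and in SSP-25. Every group was transfected with the same lipid reagent, and the control siRNA was a scrambled one. HuH-28 was grown in MEM and the other lines in RPMI1640, and the medium and the line cannot be told apart. The study calls the 2 libraries of a group the first and the second test, and neither it nor the labels say whether they came from separate cultures, so the p-values measure the spread between libraries, which may be technical. Of 16146 genes tested, 437 responded otherwise in HuH-28 by over 1 in log2 units, and 191 of these differed from RBE and from SSP-25 taken singly.

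LKB1, the product of STK11, is a serine/threonine kinase and tumor suppressor that switches on AMPK, the sensor of cellular energy, and a family of related kinases. Among those relatives, the salt-inducible kinases hold the coactivators of the cAMP-responsive factor CREB outside the nucleus. Loss of LKB1 is known to alter cell polarity, adhesion, growth control and the deposition of extracellular matrix. TGF-β and activins, 2 branches of one family of secreted ligands, drive matrix genes and the loss of epithelial features, and follistatin binds activins and takes them out of action.

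The deposited values are the authors' normalised reads per kilobase, called signal here. A response is the mean log2(signal + 0.5) with LKB1 siRNA minus that with control siRNA in a line, and a difference is the response of HuH-28 minus the mean response of RBE and SSP-25. Differences were tested with limma and adjusted over all genes tested. A gene passed at an adjusted p under 0.05, and was called when it passed with a difference beyond 1. It stood apart from both lines when the differences from RBE alone and from SSP-25 alone had the same sign and also passed.

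STK11 itself had a signal of 223 and 206 in the HuH-28 libraries with LKB1 siRNA, against 698 and 600.5 with control siRNA. In RBE it was 130 and 156 with LKB1 siRNA, against 485 and 429.8 with control siRNA. In SSP-25 it was 61.8 and 72.8 with LKB1 siRNA, against 464 and 459 with control siRNA. The groups did not overlap in any line. The response of STK11 was -1.59 in HuH-28, against -1.68 in RBE and -2.77 in SSP-25, so the fall was smaller in HuH-28 than in SSP-25 (difference 1.18 ± 0.16 (SE), adjusted p = 0.00189) and near that in RBE (difference 0.09 ± 0.16, adjusted p = 0.784). The difference of STK11 from the mean of both lines, 0.63 ± 0.14 (adjusted p = 0.018), did not pass without HuH-28 LKB1 siRNA replicate 1 or HuH-28 control siRNA replicate 2 (adjusted p = 0.0502 and 0.0584) nor under line weights (adjusted p = 0.0638). The part of the unequal knockdown in the differences below was not tested.

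The total signal of a library lay between 9909644 and 11726703, and the read depth behind it is unknown. The median SD between the 2 libraries of a group on the log2 scale was 0.0984 and 0.0922 in the HuH-28 groups with LKB1 and control siRNA, against 0.046 to 0.0514 in the groups of RBE and SSP-25. HuH-28 kept the biliary keratins KRT7, KRT8 and KRT18, but other markers of biliary epithelium were nearly absent. Its control libraries averaged 0.956 for EPCAM and 10.44 for KRT19, against 425.1 and 11450 in RBE. Markers of fibroblasts had a summed signal of 9 genes of 53830 to 54580 in HuH-28 with LKB1 siRNA and 50520 to 52700 with control siRNA. The same sum was 284.2 to 442.6 in RBE and 6828 to 11950 in SSP-25. A few genes carried it in HuH-28, as its control libraries averaged 26090 for COL3A1 and 13360 for COL1A1, both fibrillar collagens, and 5051 for THY1, a surface glycoprotein. COL1A2 and PDGFRB did not stand high, with control means of 3.02 and 27.8 in HuH-28, against 10.45 and 25.77 in SSP-25. None of the 9 had a mean under 1 in HuH-28. Markers of hepatocytes summed to 182.2 to 251.4 in HuH-28, those of leukocytes to 1294 to 1707, nearly all of it CD68, and those of endothelium to 305.3 to 413.3, nearly all of it KDR. The T cell gene CD3E was at 0 in every library. The labelled cell type thus met its markers KRT7, KRT8, KRT18, SOX9 and MUC1 in HuH-28, but not EPCAM, KRT19 or the secreted SPP1. The part of this in the differences below was not tested.

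Between siRNAs, 14.3% of genes tested were higher and 15.5% lower in HuH-28, 22.1% higher and 18.6% lower in RBE, and 21.1% higher and 21.1% lower in SSP-25, all at an adjusted p under 0.05. The difference between HuH-28 and the other lines passed for 942 genes that were higher in HuH-28 (5.83% of those tested) and 1295 that were lower (8.02%). Of these, 136 were called higher (0.842%) and 301 lower (1.86%). Genes apart from both lines numbered 54 higher (0.334%) and 137 lower (0.849%). Many of these genes were low. Of the 136, 34 were detected in all 3 lines, with a mean signal of at least 5 in either siRNA group of each line. The same held for 131 of the 301, 23 of the 54 and 84 of the 137, against 11656 of the 16146 genes tested. The median control signal in HuH-28 was 1.654 for the 136, against 158.1 over all genes tested. Most of the 137 were genes that went up elsewhere, as their median response was -0.33 in HuH-28, against 1.09 in RBE and 1.00 in SSP-25. The 54 had a median response of 1.39 in HuH-28, beside -0.49 in RBE and -0.36 in SSP-25. Over all genes tested the median difference was -0.024. Quantile normalization turned the 136 and 301 calls into 187 higher and 219 lower. Leaving out any 1 library of RBE or SSP-25 brought the 54 down to between 22 and 33, and leaving out SSP-25 LKB1 siRNA replicate 2 brought the 137 to 84. With weights that gave HuH-28 libraries less say, for their larger spread, 56 were called higher and 154 lower.

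**Figure D1:**
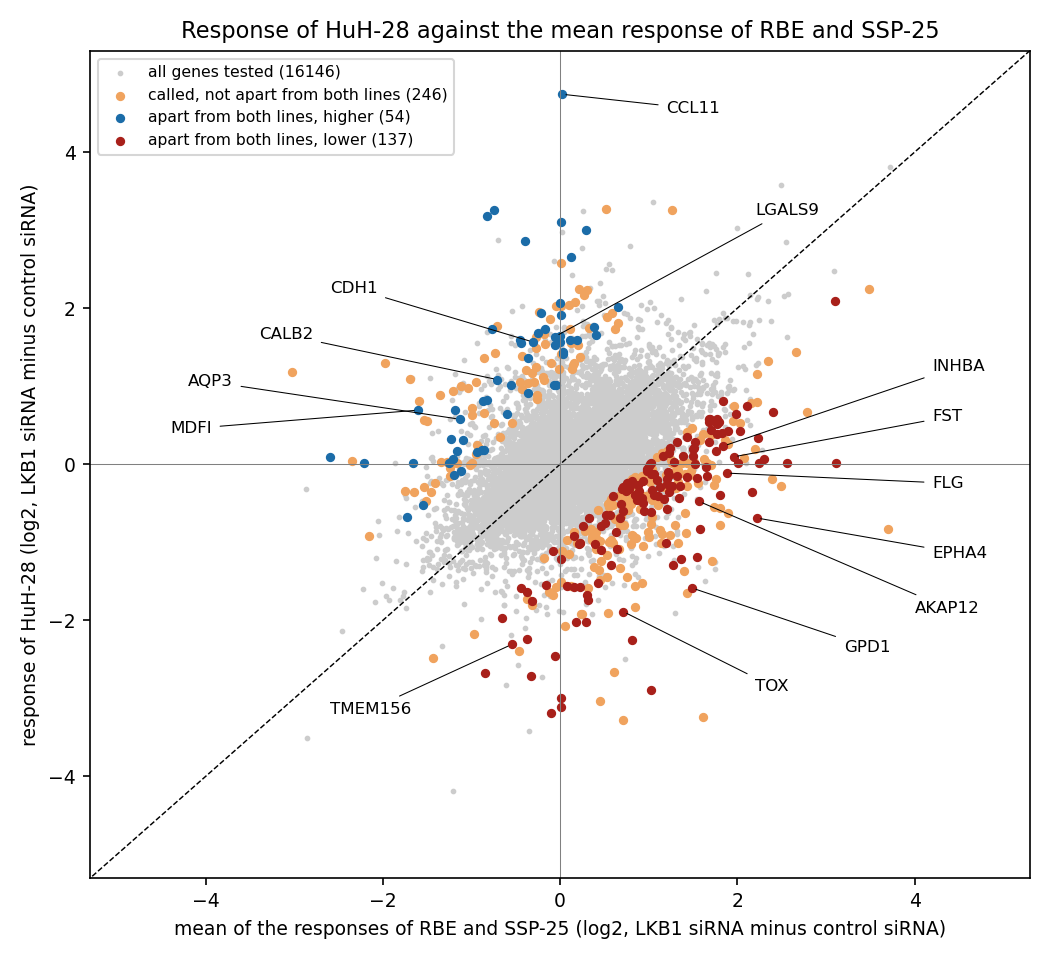
Response to LKB1 siRNA (log2, LKB1 siRNA minus control siRNA) of each of 16146 genes in HuH-28 (vertical axis) against the mean response in RBE and SSP-25 (horizontal axis). The 137 genes apart from both lines and lower (red) lie under the dashed line of equal response and mostly to the right of 0, the 54 higher (blue) above it, and the 246 other called genes are orange.

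A first group were rises in RBE and SSP-25 that were small or did not pass in HuH-28. In 37 genes (0.229% of those tested) RBE and SSP-25 both rose by more than 1 while HuH-28 moved by less than 0.5 in genes apart from both lines, and 21 of the 37 were detected, with a mean signal of at least 5, in all 3 lines. The siRNA groups of HuH-28 did not overlap in 17 of the 37, beside 57.1% of all genes tested, and some of the 37, BDNF and AKAP12 among them, passed in HuH-28 with a smaller or opposite response. The HuH-28 control level was above that of both other lines in 20 and below both in 14 of the 37, against 5768 and 5692 of the 16146 genes tested. Leaving out SSP-25 LKB1 siRNA replicate 2 brought this set and its mirror image below, 45 genes in all, to 25, and leaving out either HuH-28 control library to 29. Those described first encode an activin subunit, the activin antagonist, an integrin and a neurotrophin.

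FST encodes follistatin, the antagonist of activins. Its signal was 2375 and 2578 in HuH-28 with LKB1 siRNA, against 2237 and 2398 with control siRNA. In RBE it was 13.1 and 11.8 with LKB1 siRNA, against 3.65 and 4.51 with control siRNA, and in SSP-25 36.1 and 31.5, against 8.09 and 4.31. The siRNA groups were apart in RBE and SSP-25 and overlapped in HuH-28, where every library was far above those of the other lines. The responses were 0.10 in HuH-28, beside 1.50 in RBE and 2.41 in SSP-25 (difference -1.86 ± 0.28 (SE), adjusted p = 0.00319).

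INHBA encodes the subunit of which activin A is made. The HuH-28 libraries read 3714 and 3603 with LKB1 siRNA, against 3056 and 3164 with control siRNA. RBE read 35.6 and 38.2, against 4.85 and 7.26, and SSP-25 509 and 476, against 227 and 215. LKB1 siRNA libraries were the higher in all 3 lines, with no overlap. The response of HuH-28 was 0.23, set against 2.54 in RBE and 1.15 in SSP-25. The HuH-28 response did not pass in limma (adjusted p = 0.238), which pooled the spread of all 6 groups, so a small rise in HuH-28 is not excluded. The difference was -1.61 ± 0.17 (adjusted p = 0.000631). The ligand and its binder thus both stood far higher in HuH-28 under either siRNA than elsewhere, and both rose in RBE and SSP-25.

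CPA4, a carboxypeptidase, fell outside the rule for named genes and was taken up after its values were seen, for its promoter. Its responses were 0.43 in HuH-28, against 2.46 in RBE and 1.60 in SSP-25 (difference -1.59 ± 0.12, adjusted p = 0.000137). FLG encodes filaggrin, a structural protein of the outer skin. In this case HuH-28 was the low line, with 4.91 and 4.69 with LKB1 siRNA, against 5.13 and 5.33 with control siRNA. RBE had 118 and 127, against 47.6 and 42.8, and SSP-25 364 and 411, against 79.7 and 73.3. The HuH-28 response was -0.11 while those of RBE and SSP-25 were 1.43 and 2.33 (difference -1.99 ± 0.15, adjusted p = 0.000137).

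Promoters of the 37 genes were searched for 5 motifs, first TGANTCA, the site of AP-1 (N is any base, both strands, 250 bases before to 50 after the RefSeq start in GRCh38.p14). Of the 28 with a promoter on hand, 5 held it (17.9%), against 644 of 11733 promoters of genes tested (5.49%). The shares were 8.65% (9 of 104) among all genes apart and lower and 8.11% (3 of 37) among those apart and higher. The TATA box, TATAAA, was in 6 of the 28 (21.4%, against 7.43% of all), the CArG box of serum response factor in 2 (7.14%, against 1.13%), the TEAD site GGAATG in 2 (7.14%, against 11.3%) and the half-site of the cAMP response element, TGACG, in 8 (28.6%, against 31.4%). The AP-1 site was thus not alone in its higher share, and it was picked for display after these shares were seen. The 3 promoters shown, credited to RefSeq, are those of CPA4, FST and FLG, whose values are given above, and capitals mark the site. CPA4 held 2 sites, and FST and FLG 1 each. A match describes the letters of the window and no binding was measured.
CPA4, chr7:130292911-130293210, plus strand: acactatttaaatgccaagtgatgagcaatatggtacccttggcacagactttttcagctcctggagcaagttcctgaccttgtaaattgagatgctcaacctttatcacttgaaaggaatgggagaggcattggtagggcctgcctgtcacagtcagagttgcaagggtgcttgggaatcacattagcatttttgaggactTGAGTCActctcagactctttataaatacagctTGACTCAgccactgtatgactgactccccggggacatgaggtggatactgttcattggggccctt
FST, chr5:53480379-53480678, plus strand: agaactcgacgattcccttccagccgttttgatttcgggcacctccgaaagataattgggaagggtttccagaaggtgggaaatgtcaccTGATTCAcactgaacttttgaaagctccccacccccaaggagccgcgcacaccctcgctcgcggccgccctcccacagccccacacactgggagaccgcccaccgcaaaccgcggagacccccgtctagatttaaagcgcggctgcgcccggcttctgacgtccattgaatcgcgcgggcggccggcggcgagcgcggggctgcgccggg
FLG, chr1:152325190-152325489, minus strand: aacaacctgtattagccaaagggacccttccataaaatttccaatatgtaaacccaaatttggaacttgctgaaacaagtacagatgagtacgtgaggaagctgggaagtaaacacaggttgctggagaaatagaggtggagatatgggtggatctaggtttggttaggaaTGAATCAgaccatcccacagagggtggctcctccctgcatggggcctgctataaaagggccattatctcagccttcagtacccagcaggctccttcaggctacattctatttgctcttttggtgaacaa

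ITGB8, the integrin subunit that frees latent TGF-β, had 289 and 250.4 in HuH-28 with LKB1 siRNA, against 225 and 199.6 with control siRNA. In SSP-25 it had 296 and 291, against 33.7 and 38.5, so that SSP-25 with LKB1 siRNA came close to the level of HuH-28. RBE stayed far below, at 12.4 and 16.3, against 6.01 and 3.96. The responses were 0.34 in HuH-28, against 1.45 in RBE and 3.01 in SSP-25 (difference -1.89 ± 0.23, adjusted p = 0.00133). VCAN, the matrix proteoglycan versican, lay just outside this set, as RBE rose by 0.70. It had 3266 and 2696 in HuH-28 with LKB1 siRNA, against 3289 and 2829 with control siRNA, and these overlapped. It rose in RBE to 1400 and 1438, against 906 and 845, and in SSP-25 to 195 and 205, against 29.2 and 36.1. The difference of VCAN was -1.69 ± 0.14 (adjusted p = 0.000242). BDNF, a neurotrophin gene with cAMP-responsive promoters, rose in every line, by 0.43 in HuH-28, beside 1.51 in RBE and 2.28 in SSP-25 (difference -1.47 ± 0.13, adjusted p = 0.000328). OASL, an interferon-induced antiviral gene, responded by -0.43 in HuH-28 (adjusted p = 0.283), against 1.62 in RBE and 1.07 in SSP-25 (difference -1.78 ± 0.34, adjusted p = 0.00993).

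**Figure D2:**
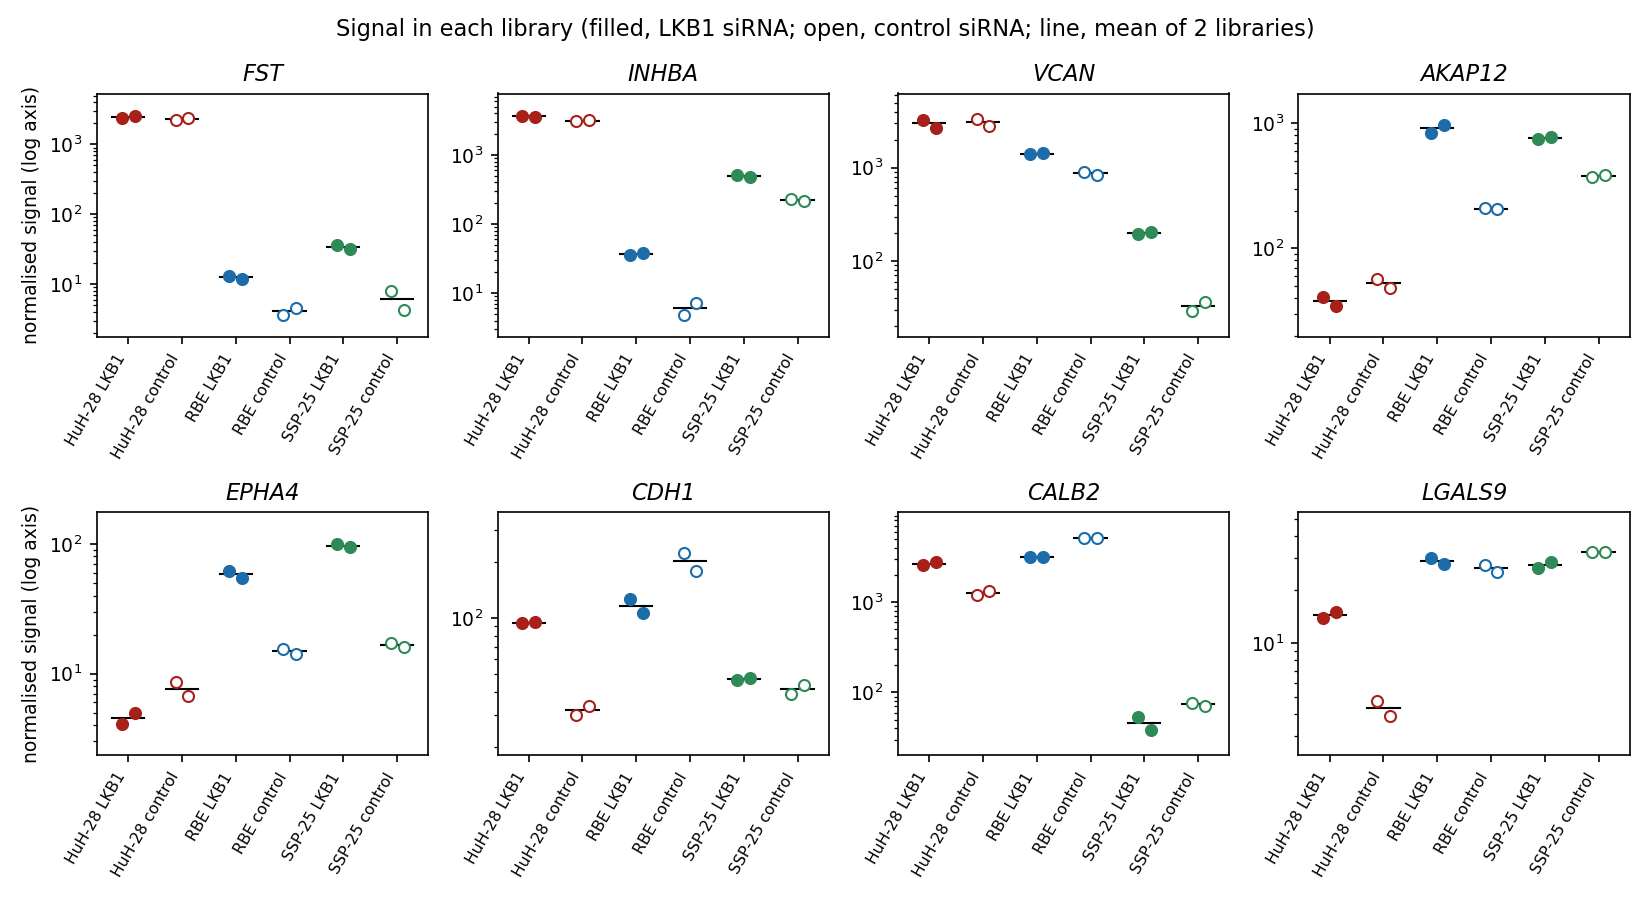
Normalised signal (log axis) of 8 genes in each of the 12 libraries, by line and siRNA, with filled points for LKB1 siRNA, open points for control siRNA and a line at the mean of 2 libraries. FST, INHBA and VCAN rose in RBE and SSP-25 and did not pass in HuH-28, where INHBA alone of them had no overlap between siRNAs. EPHA4 and AKAP12 moved opposite ways, and CDH1, CALB2 and LGALS9 rose in HuH-28.

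The opposite case, a fall of more than 1 in RBE and SSP-25 with HuH-28 moving by less than 0.5, was found in 8 genes (0.0495%), of which 3 were detected in all lines. UPP1, uridine phosphorylase of pyrimidine salvage, had 480 and 466 in HuH-28 with LKB1 siRNA, against 542 and 502 with control siRNA. It fell to 423 and 439.9 in RBE, against 1148 and 1042, and to 718 and 713 in SSP-25, against 1520 and 1432. The difference was 1.05 ± 0.08 (adjusted p = 0.000137). MCTP1, a calcium-binding membrane protein, had a response of 0.17 in HuH-28, against -1.06 in RBE and -1.27 in SSP-25 (difference 1.33 ± 0.22, adjusted p = 0.00601). C4BPB, a subunit of the binding protein of complement C4, had a difference of 1.27 ± 0.31 (adjusted p = 0.0257) that did not pass without HuH-28 LKB1 siRNA replicate 2, HuH-28 control siRNA replicate 1, RBE control siRNA replicate 1 or either SSP-25 replicate 1, nor under line weights, with adjusted p-values up to 0.0975 over its alternatives.

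Gene lists written for matrix glycoproteins, matrix proteases and TGF-β signalling leaned the same way. Of 37 laminins and matrix glycoproteins tested, 16 passed as lower and 2 as higher in HuH-28, with a median difference of -0.365, beside 8.02% and 5.83% of all genes. Every list count below is to be read against these shares. The median response of the list was 0.064 in HuH-28, beside 0.402 in RBE and 0.650 in SSP-25. FN1, fibronectin, was 1 of the 16, with a mean signal of 33165 in HuH-28 with LKB1 siRNA and 28951 with control siRNA. It rose in RBE to 915, against 526, and in SSP-25 to 9940, against 3736 (difference -0.91 ± 0.09, adjusted p = 0.000452). TGFBI, a matrix protein induced by TGF-β, had a difference of -0.76 ± 0.08 that came from RBE, since the HuH-28 response of 0.33 was near the 0.50 of SSP-25 (adjusted p = 0.226 for that pair).

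Of 49 TGF-β superfamily ligands, receptors and targets, 17 passed as lower and 2 as higher (median difference -0.326, but -0.154 with a pseudocount of 10). TGFB2, a ligand, rose by 0.22 in HuH-28, against 0.94 in RBE and 1.10 in SSP-25 (difference -0.79 ± 0.06, adjusted p = 0.000212). TGFBR1, a type I receptor, rose in all lines and least in HuH-28, to a mean of 3115 ± 51.01, against 1547 ± 7.37 (SD, n = 2 each). In RBE it reached 520.2 ± 27.3, against 116 ± 0.95, and in SSP-25 348 ± 0.76, against 111 ± 8.13. Its difference was -0.90 ± 0.07 (adjusted p = 0.000216).

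Of 32 matrix proteases, urokinase components and inhibitors, 12 were lower and 2 higher (median -0.495). PLAU, urokinase, was low in HuH-28, at 2.09 and 5.04 with LKB1 siRNA, against 14.7 and 9.92 with control siRNA. It stood at 2624 and 3077 in RBE, against 1541 and 1620, and at 1097 and 1043 in SSP-25, against 1202 and 1291. The responses were -1.73 in HuH-28, beside 0.85 in RBE and -0.22 in SSP-25 (difference -2.05 ± 0.35, adjusted p = 0.00662). MMP14, a membrane-bound collagenase, fell by 0.23 in HuH-28 and rose by 1.06 in RBE and 0.27 in SSP-25 (difference -0.90 ± 0.10, adjusted p = 0.000721). The inhibitors SERPINE2, with a difference of 0.58, and SERPINB2, with 1.03, were the 2 higher members. SERPINB2 was near 0 in RBE and fell by 1.36 in SSP-25.

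Of 33 collagen chains, 6 were lower and 2 higher (median -0.141). HuH-28 lay between the other lines by the median response, with 0.358, against 0.282 in RBE and 0.428 in SSP-25. COL5A1 rose by 0.58 in HuH-28, against 2.37 in RBE and 1.18 in SSP-25, and COL12A1 responded by 0.18, 1.20 and 0.73 in the same order. COL27A1 was the exception, higher in HuH-28 by 0.81 ± 0.08 (adjusted p = 0.00061), with a response of 0.85 in HuH-28, beside -0.02 in RBE and 0.10 in SSP-25. COL1A2 read only 2.66 and 2.65 in HuH-28 with LKB1 siRNA, against 2.80 and 3.24 with control siRNA, beside COL1A1 at a mean of 17600 and 13360. CDH2, N-cadherin of mesenchymal cells, rose in every line, by 0.21 in HuH-28, against 0.79 in RBE and 0.70 in SSP-25 (difference -0.54 ± 0.06, adjusted p = 0.000997). Among 25 integrin subunits 4 were lower and 0 higher (4 and 1 at an unadjusted p under 0.05 in limma). Their median response was 0.068 in HuH-28, again between -0.002 in RBE and 0.458 in SSP-25. ITGAV, which pairs with ITGB8, fell by 0.38 in HuH-28 and rose by 0.31 in RBE. Of 38 actin, myosin and serum response factor targets 6 were lower and 4 higher. MYL9, a myosin light chain of contractile cells, averaged 36327 ± 762 in HuH-28 with LKB1 siRNA and 28299 ± 94.3 with control siRNA, and responded by 0.36, beside 1.52 in RBE and 0.88 in SSP-25 (adjusted p = 0.00245). Fibroblast markers themselves gave 2 lower and 0 higher of 9 (3 and 0 unadjusted).

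**Figure D3:**
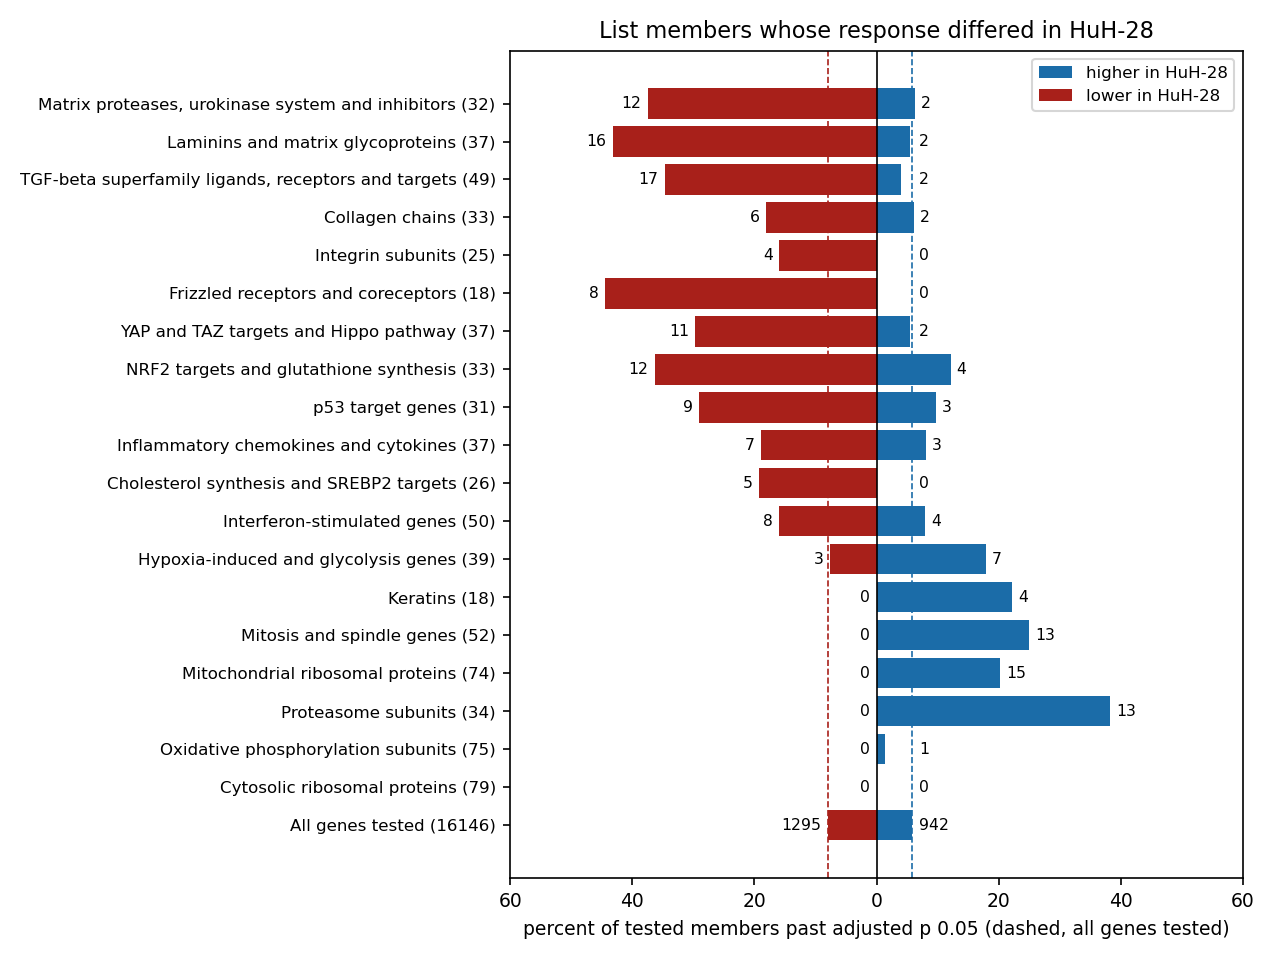
Percent of the tested members of 19 gene lists whose response passed as higher (blue, right) or lower (red, left) in HuH-28 than in the mean of RBE and SSP-25, with member counts at the bar ends, list sizes in parentheses and dashed lines at 5.83% and 8.02% of all genes tested. Matrix proteases, matrix glycoproteins, TGF-β and Frizzled lists lean to the left, and proteasome, mitotic and mitochondrial ribosome lists to the right.

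A second group moved in opposite directions, with each of the 3 lines and the difference past the test. HuH-28 fell where RBE and SSP-25 rose in 32 genes (0.198% of those tested), and rose where they fell in 12 (0.0743%). Both counts were sensitive to leaving out 1 library, and the 32 became fewer whichever library of RBE or SSP-25 was left out. With a replicate block within each line the 32 and 12 became 62 and 39. EPHA4, a receptor tyrosine kinase for ephrins, had the largest difference among those detected in all lines. It read 4.12 and 4.95 in HuH-28 with LKB1 siRNA, against 8.59 and 6.68 with control siRNA. RBE gave 61.8 and 54.7, against 15.6 and 14.2, and SSP-25 100.2 and 93.96, against 17.3 and 16.1. No groups overlapped, and the responses were -0.69 in HuH-28, against 1.93 in RBE and 2.50 in SSP-25 (difference -2.90 ± 0.21, adjusted p = 0.000137). Ephrins and their receptors as a list had 5 lower and 1 higher of 20, with a difference of -1.73 for EPHB1 and of 0.85 for EPHB3, which for EPHB3 came from RBE (adjusted p = 0.672 against SSP-25 alone).

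TOX, a nuclear HMG-box protein known from T cell development, had 2.44 and 2.87 in HuH-28 with LKB1 siRNA, against 9.39 and 13.2 with control siRNA. RBE had 6.71 and 7.02, against 3.44 and 3.57, and SSP-25 136 and 154, against 99.5 and 98.5. HuH-28 was thus lower with LKB1 siRNA and both other lines higher (difference -2.60 ± 0.23, adjusted p = 0.000308). AKAP12, a scaffold that anchors protein kinase A, met this rule and that of rises in RBE and SSP-25 with HuH-28 within 0.5. It had 40.6 and 34.7 in HuH-28 with LKB1 siRNA, against 56.5 and 48.5 with control siRNA. It reached 839.8 and 975 in RBE, against 208 and 206, and 743 and 775 in SSP-25, against 372 and 383 (difference -2.04 ± 0.12, adjusted p = 0.000107). KITLG encodes stem cell factor, the ligand of KIT. Its responses were -0.49 in HuH-28, beside 0.71 in RBE and 1.16 in SSP-25, on means of 129 ± 4.62, against 181 ± 10.5, in HuH-28 (SD, n = 2 each; difference -1.43 ± 0.10, adjusted p = 0.000137). DIO2, the deiodinase that makes active thyroid hormone, had 13.6 and 14.9 in HuH-28 with LKB1 siRNA, against 32.4 and 34.8 with control siRNA. Its values in SSP-25 ran the other way, at 33.5 and 30.5, against 13.4 and 14.8, and in RBE it was under 2 in every library.

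Other members of this set were low. GPD1, cytosolic glycerol-3-phosphate dehydrogenase, was under 2 in every HuH-28 library and at 36.95 and 32.9 in RBE with LKB1 siRNA, against 16.3 and 12.6 (difference -3.08 ± 0.48, adjusted p = 0.00396). B3GNT8, a glycosyltransferase, and LOC283403, an uncharacterised locus, had differences of -2.57 and -2.73 with HuH-28 signals under 3. In HuH-28, GPD1 had 0.0137 and 0.739 with LKB1 siRNA, against 1.99 and 1.80, and B3GNT8 0.62 and 0.424, against 2.81 and 1.38. In SSP-25, GPD1 had 2.79 and 1.85, against 0.351 and 0.327, and B3GNT8 1.40 and 0.972, against 0.00995 and 0.539. Each of these changes thus involved values under 1, so its size cannot be read. All HuH-28 values of LOC283403 were under 1, where zeros differed between libraries, so its fall in HuH-28 cannot be read. CCNE1, the cyclin that drives entry into S phase, was well expressed in all lines. It fell by 0.35 in HuH-28 and rose by 0.29 in RBE and 0.42 in SSP-25 (difference -0.70 ± 0.08, adjusted p = 0.000857). DUSP16, a phosphatase of stress kinases, fell by 0.52 in HuH-28 and rose by 0.47 in RBE and 0.30 in SSP-25 (adjusted p = 0.000631).

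Of the 12 genes that rose in HuH-28 and fell elsewhere, CALB2 moved most. CALB2 encodes calretinin, a calcium-binding protein used as a marker of mesothelium. It had 2559 and 2761 in HuH-28 with LKB1 siRNA, against 1198 and 1310 with control siRNA. RBE had 3118 and 3114, against 5162 and 5082, and SSP-25 53.2 and 38.6, against 76.4 and 71.2. The signal thus rose in HuH-28 and fell in both other lines (difference 1.79 ± 0.15, adjusted p = 0.000216). AQP3, a channel for water and glycerol, had 10.7 and 9.53 in HuH-28 with LKB1 siRNA, against 6.00 and 7.28 with control siRNA. It fell to 24.9 and 24.3 in RBE, against 87.7 and 73.4, and to 31 and 27.02 in SSP-25, against 50.4 and 37.6 (difference 1.71 ± 0.23, adjusted p = 0.00196). 

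Another 5 named genes of this set moved less in each line but with little spread. CTNNBIP1, an inhibitor of the binding of β-catenin to TCF factors, averaged 436 ± 25.2 in HuH-28 with LKB1 siRNA and 369.8 ± 9.54 with control siRNA. It fell to 216 ± 1.57 in RBE, against 266 ± 17.8, and to 169.9 ± 2.46 in SSP-25, against 213 ± 8.48 (SD, n = 2 each; difference 0.55 ± 0.08, adjusted p = 0.00339). EZR, ezrin, which ties actin to the cell membrane, responded by 0.24 in HuH-28, against -0.41 in RBE and -0.31 in SSP-25 (adjusted p = 0.000697). NDRG1, induced by low oxygen, responded by 0.27, -0.50 and -0.31 in the same order (adjusted p = 0.000259). The peroxisome assembly gene PEX16 and BLVRA, biliverdin reductase, had differences of 0.65 and 0.59.

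**Figure D4:**
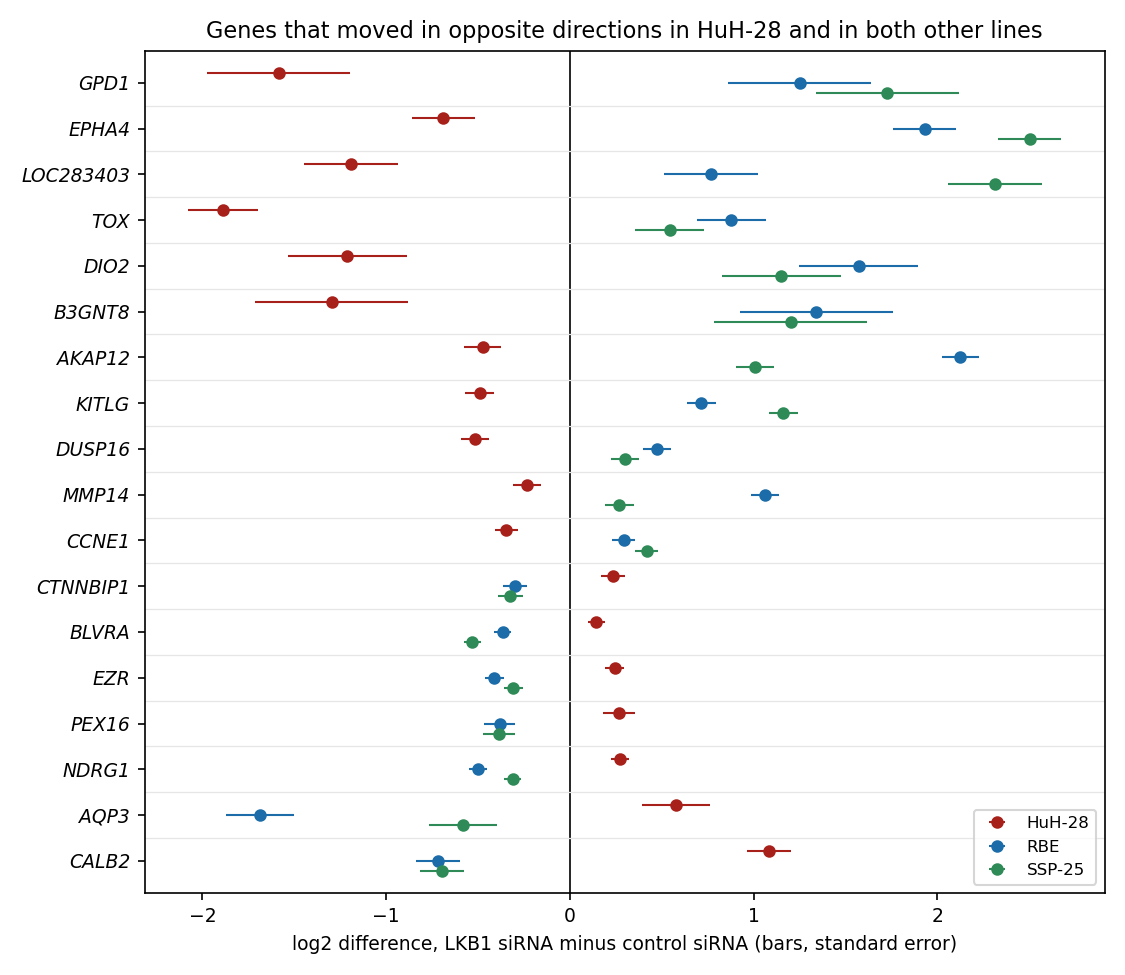
Response to LKB1 siRNA (log2, LKB1 siRNA minus control siRNA, bars are standard errors of the fit) in HuH-28 (red), RBE (blue) and SSP-25 (green) of 18 named genes that passed in opposite directions. The upper 11 genes, GPD1 to CCNE1, have HuH-28 left of 0 and both other lines right of it, and the lower 7, CTNNBIP1 to CALB2, the reverse.

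Some epithelial genes rose in HuH-28 and moved in another line as well. CDH1, E-cadherin of epithelial junctions, had 94.4 and 94.7 in HuH-28 with LKB1 siRNA, against 29.98 and 33.3 with control siRNA. It fell in RBE to 126 and 106, against 226 and 179, and was 46.2 and 47.5 in SSP-25, against 39.01 and 43.2. The responses were 1.57 in HuH-28, beside -0.80 in RBE and 0.19 in SSP-25 (adjusted p = 0.287 for SSP-25), with a difference of 1.87 ± 0.16 (adjusted p = 0.000256). CGN, cingulin of tight junctions, had 14.2 and 13.9 in HuH-28 with LKB1 siRNA, against 7.39 and 6.99 with control siRNA, and 171 and 171, against 256 and 248, in RBE (difference 1.28 ± 0.12, adjusted p = 0.000452). Both stayed below their RBE levels. Among 46 genes of epithelial junctions, however, just 3 passed as higher and 2 as lower, so CDH1 and CGN did not stand for the list.

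Of 18 keratins 4 were higher and 0 lower in limma's test (5 and 1 at an unadjusted p under 0.05). KRT8 averaged 3930 ± 53.5 in HuH-28 with LKB1 siRNA and 2680 ± 256 with control siRNA (SD, n = 2 each). KRT18, its partner in simple epithelia, averaged 6135 ± 591 and 4575 ± 429. Both rose in SSP-25 as well, by 0.31 and 0.41, while their responses in RBE were -0.67 and -0.60, so the differences of 0.74 and 0.52 came from RBE and did not pass against SSP-25 alone (adjusted p = 0.24 and 0.975). KRT8 and KRT18 have many pseudogenes, and how reads shared with them were counted is not given. The hepatocyte factor HNF4A had 2.54 and 1.12 in HuH-28 with LKB1 siRNA, against 0.20 and 0.14 with control siRNA, far under its RBE level of 163 and 174 with LKB1 siRNA, and its difference did not pass with a pseudocount of 10.

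Responses found in HuH-28 alone numbered 19 higher (0.118%) and 16 lower (0.0991%), with HuH-28 beyond 1 and both other lines within 0.5. Leaving out any 1 library of RBE or SSP-25 brought the 35 down to between 13 and 23. LGALS9, the lectin galectin-9, had 13.8 and 14.97 in HuH-28 with LKB1 siRNA, against 4.70 and 3.90 with control siRNA, while RBE and SSP-25 stayed between 25 and 33 in all libraries (difference 1.69 ± 0.19, adjusted p = 0.000816). PLEKHG3, a guanine nucleotide exchange factor, had 18.98 and 21.2 in HuH-28 with LKB1 siRNA, against 5.34 and 5.82 with control siRNA (difference 1.37 ± 0.14, adjusted p = 0.000588). P2RY6, a receptor for UDP, had 4.68 and 5.91, against 1.78 and 1.10, and SSP-25 held it at 169 and 182, against 169 and 171. CLIP3 was the abundant member, at 670.3 and 534 in HuH-28 with LKB1 siRNA, against 310.3 and 283 with control siRNA, beside at most 16 in the other lines. Its difference of 1.06 ± 0.24 (adjusted p = 0.0191) and that of PSD4, 1.09 ± 0.25 (adjusted p = 0.0213), did not pass under line weights, nor either of them without HuH-28 LKB1 siRNA replicate 1.

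The 4 genes that fell in HuH-28 alone by the rule above and were detected in all lines stood higher in RBE and SSP-25 than in HuH-28. ARHGDIB, an inhibitor of GDP dissociation, had 9.18 and 15.2 in HuH-28 with LKB1 siRNA, against 34.2 and 42.3 with control siRNA (difference -1.27 ± 0.23, adjusted p = 0.0073). It had 835 and 815 in RBE, against 1122 and 1066, and 3786 and 3578 in SSP-25, against 4376 and 4901. ARHGDIB was thus lower with LKB1 siRNA in every line, without overlap. Its responses in RBE and SSP-25, -0.41 and -0.33, did not pass (adjusted p = 0.108 and 0.182). SLC2A11, a sugar transporter, had 13.8 and 10.2, against 34.1 and 37.3 (difference -1.39 ± 0.22, adjusted p = 0.00444). MFI2, melanotransferrin, and ME3, mitochondrial malic enzyme, differed by -1.42 and -1.03 from HuH-28 signals under 15. TMEM156, a membrane protein, fell in HuH-28 to 30.4 and 38.6, against 163 and 181 with control siRNA, and less in SSP-25. Its response was -2.31 in HuH-28, against -0.79 in SSP-25 and -0.29 in RBE (adjusted p = 0.0604) (difference -1.76 ± 0.14, adjusted p = 0.000193). BCL2, the survival factor, had 2.37 and 1.54 in HuH-28 with LKB1 siRNA, against 6.64 and 4.39 with control siRNA, and rose in RBE to 18.6 and 16.9, against 9.70 and 9.90 (difference -1.87 ± 0.32, adjusted p = 0.00662). BCL2L1, which encodes BCL-XL, went the other way, to a mean of 2820 ± 134 in HuH-28 with LKB1 siRNA, against 1898 ± 26.1 with control siRNA (SD, n = 2 each; difference 0.48 ± 0.06, adjusted p = 0.00125). KLRC1, a receptor of natural killer cells with near-identical neighbours among which reads could be split, fell by 2.68 in HuH-28 (difference -1.83 ± 0.37, adjusted p = 0.0124). Its difference was smaller in size than that fall, so the mean response of RBE and SSP-25 was also a fall.

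Other genes higher than in both lines included SEMA6B, a semaphorin, at 129 and 87.5 in HuH-28 with LKB1 siRNA, against 45.8 and 36.97 with control siRNA (difference 1.72 ± 0.24, adjusted p = 0.00249). IQGAP2, a scaffold protein of the IQGAP family, had 122 and 91.6, against 56.3 and 48.4, and fell in RBE to 190.1 and 149, against 333 and 301. SNCG, γ-synuclein, had 14.9 and 21.05 in HuH-28, against 7.40 and 13.2, and fell in RBE to 127 and 124, against 283 and 343. The largest difference of genes detected in all lines was that of MDFI, an inhibitor of myogenic factors, at 2.29 ± 0.41 (adjusted p = 0.00759), though its HuH-28 values overlapped between siRNAs, at 11.01 and 6.29 with LKB1 siRNA, against 3.79 and 6.46 with control siRNA. The chemokine eotaxin, CCL11, was not detected in RBE or SSP-25 and read 16.3 and 10.3 in HuH-28 with LKB1 siRNA, against 0.0053 and 0 with control siRNA, a fitted difference that depends on the pseudocount. CLEC3B, tetranectin, read 2.58 and 6.22 with LKB1 siRNA and near 0 with control siRNA, and CSRP3, a muscle LIM protein, 2.27 and 4.26 with LKB1 siRNA and near 0 with control siRNA. XAGE5, a cancer-testis gene, and OR8G2, an olfactory receptor, were near 0 in HuH-28 with LKB1 siRNA, against 4.21 and 3.58 and, for OR8G2, 4.43 and 2.81 with control siRNA. C10orf82 was near 0 in every HuH-28 library and in both other lines with control siRNA, and read 3.96 and 2.07 in RBE with LKB1 siRNA.

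Inflammatory genes showed how a difference from the mean can rest on 1 line. Of 37 chemokines and cytokines 7 were lower and 3 higher (median -0.378), beside a median response of -0.199 in HuH-28, against 0.518 in RBE and -0.508 in SSP-25. IL8, the neutrophil chemokine, had 765 and 732 in HuH-28 with LKB1 siRNA, against 901 and 923 with control siRNA. RBE gave 214 and 225, against 28.1 and 35.6, and SSP-25 319.9 and 268, against 240.2 and 316. The difference of -1.72 ± 0.17 passed (adjusted p = 0.000588), but that from SSP-25 alone did not (adjusted p = 0.239). CXCL5, a related chemokine, fell in HuH-28 and SSP-25, with responses of -2.18 and -1.77, beside -0.18 in RBE. NFKB2, a subunit of NF-κB, fell by 0.97 in SSP-25 and responded by -0.02 in HuH-28, so its difference of 0.54 came from SSP-25. Of 50 interferon-stimulated genes 8 were lower and 4 higher (median -0.027), and the differences of IRF1, 0.53, and IFI35, 0.63, came from SSP-25, with responses of -0.88 and -0.84.

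Lists of basic cell machinery differed in how many members passed. Of 34 proteasome subunits 13 were higher in HuH-28 and 0 lower (19 and 0 at an unadjusted p under 0.05), with a median difference of 0.280 and median responses of -0.012 in HuH-28, beside -0.233 in RBE and -0.263 in SSP-25. PSMC4, an ATPase of the regulatory particle, averaged 2497 ± 34.6 in HuH-28 with LKB1 siRNA and 2314 ± 26.8 with control siRNA. It fell to 1679 ± 67.8 in RBE, against 2126 ± 166, and to 1660 ± 78.3 in SSP-25, against 2011 ± 33.7 (SD, n = 2 each; difference 0.42 ± 0.08, adjusted p = 0.00782). Of 74 mitochondrial ribosomal proteins 15 were higher and 0 lower (28 and 2 unadjusted, median 0.161), among them MRPL9 with 0.43 ± 0.06 (adjusted p = 0.00311). Of 79 cytosolic ribosomal proteins 0 passed in limma's test in either direction (4 were higher and 0 lower at an unadjusted p under 0.05), and of 75 subunits of oxidative phosphorylation 1 was higher and 0 lower (11 and 0 unadjusted).

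Of 52 genes of mitosis and the spindle, 40 fell in HuH-28, against 49 in RBE and 23 in SSP-25, and the difference passed as higher in HuH-28 for 13 and as lower for 0 (20 and 1 unadjusted, median difference 0.126). The list had a median response of -0.364 in HuH-28, against -0.791 in RBE and -0.146 in SSP-25, so the lean lay on the side of RBE. HMMR, a spindle protein, responded by -1.04 in HuH-28, against -1.74 in RBE and -1.37 in SSP-25, and CDC20, an activator of the anaphase complex, by -0.18, -0.85 and -0.41 in that order. Neither passed against SSP-25 alone (adjusted p = 0.0716 and 0.0712). The replication helicase subunit MCM5 had a response of 0.06 in HuH-28, against -0.38 in RBE and -0.25 in SSP-25 (difference 0.38 ± 0.06, adjusted p = 0.00633). Of 44 replication genes 5 were higher and 2 lower, beside 5.83% and 8.02% of all genes tested.

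Stress and metabolic lists were mixed. Of 33 NRF2 targets and glutathione genes 12 were lower and 4 higher, and AKR1C3, an aldo-keto reductase, had 11.8 and 14.5 in HuH-28 with LKB1 siRNA, against 43.6 and 36.9 with control siRNA. AKR1C3 averaged 2074 with LKB1 siRNA and 2064 with control siRNA in RBE and fell by 0.89 in SSP-25 (difference -1.14 ± 0.12, adjusted p = 0.000588). SLC7A11, the cystine importer, fell in HuH-28 and RBE, with responses of -1.37 and -0.95, beside -0.09 in SSP-25. The median response of the NRF2 list was -0.272 in HuH-28, against -0.081 in RBE and -0.284 in SSP-25. Of 31 p53 targets 9 were lower and 3 higher, with a median response of 0.074 in HuH-28, against 0.603 in RBE and -0.126 in SSP-25. The lean of this list thus lay on the side of RBE. Among the lower members, SESN1, a sestrin that restrains mTORC1, rose by 0.27 in HuH-28, against 1.68 in RBE and 0.72 in SSP-25 (adjusted p = 0.000864). BTG2, an inhibitor of growth, responded by -0.06 in HuH-28, beside 1.00 in RBE and 0.98 in SSP-25. Of 39 hypoxia-induced and glycolytic genes 7 were higher and 3 lower, with BNIP3, a mitophagy receptor, higher by 0.62 ± 0.07 (adjusted p = 0.00107). Sterol genes gave 5 lower and 0 higher of 26 (9 and 0 unadjusted). ACACA, acetyl-CoA carboxylase and a target of AMPK, rose by 0.44 in RBE and 0.70 in SSP-25 and responded by 0.05 in HuH-28 (adjusted p = 0.693) (difference -0.52 ± 0.10, adjusted p = 0.00837). In the unfolded protein response 5 of 27 were lower and 1 higher, and the chaperone HSPA5 differed by -0.47 ± 0.09 (adjusted p = 0.00968).

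Of 22 genes of the LKB1 complex, AMPK and related kinases 2 were higher and 1 lower, near the shares of 5.83% and 8.02% over all genes. They were STK11, its partner pseudokinase STRADB, with a difference of 0.34, and the scaffold CAB39, with -0.30. Each of the 3 failed the test without 1 or more of the HuH-28 libraries and under line weights. Of 29 CREB coactivators and cAMP-responsive targets 4 were lower and 2 higher, among them NR4A1, an orphan nuclear receptor, at -1.33 ± 0.24 (adjusted p = 0.00845) and PPARGC1A, a coactivator of mitochondrial genes, at -1.05 ± 0.21 (adjusted p = 0.0115). PPARGC1A fell by 0.79 in HuH-28 and NR4A1 rose by 2.21 in RBE and 1.20 in SSP-25. Of 32 MAPK feedback genes 7 were lower and 6 higher, and DUSP5, a nuclear phosphatase of ERK, rose by 0.46 in HuH-28, beside 1.20 in RBE and 1.39 in SSP-25 (difference -0.84 ± 0.07, adjusted p = 0.000241).

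The study measured Wnt signalling, and its receptors and ligands were counted as separate lists. Of 18 Frizzled receptors and coreceptors 8 were lower in HuH-28 and 0 higher (9 and 0 unadjusted, median -0.355). The median response of this list was 0.317 in HuH-28, against 0.418 in RBE and 0.721 in SSP-25, so HuH-28 was nearer RBE. None of its members stood apart from both lines, which took a difference beyond 1. The coreceptor LRP6 rose by 0.29 in HuH-28, against 0.63 in RBE and 0.94 in SSP-25 (difference -0.49 ± 0.08, adjusted p = 0.00533). PTK7, a Wnt coreceptor of planar polarity, averaged 3182 ± 74.97 in HuH-28 with LKB1 siRNA and 2515 ± 37.3 with control siRNA, and rose by 0.34, beside 0.81 in RBE and 0.76 in SSP-25 (adjusted p = 0.00662). Of 12 Wnt ligands 2 were lower and 0 higher (2 and 2 unadjusted), of 39 Wnt antagonists and β-catenin targets 5 lower and 3 higher, and of 37 YAP and TAZ targets and Hippo genes 11 lower and 2 higher. Over all genes tested 8.02% were lower and 5.83% higher. Of the 15 genes that the study itself named, chosen there on these samples and so no independent evidence, 2 were higher (CDH1 and VCL) and 4 lower (CDH2, WNT5B, CD24 and FZD2). Of these 6, VCL, WNT5B and FZD2 failed the test without 1 or more single libraries, and CD24 under line weights. CD24 rose by 1.17 in HuH-28, beside 1.10 in RBE and 2.45 in SSP-25. Its difference came from SSP-25 and did not pass against RBE alone (adjusted p = 0.789). FZD2 rose by 0.39, 1.01 and 0.78 in the same order, and did not pass against SSP-25 alone (adjusted p = 0.0967). WNT5B rose by 1.16 in HuH-28, beside 2.69 in RBE and 1.76 in SSP-25, and its difference of -1.07 ± 0.22 passed (adjusted p = 0.0127) but not under line weights nor without HuH-28 control siRNA replicate 1. The 9 others did not pass, among them HIF1A, which rose by 1.18, 1.12 and 1.17 (difference 0.04 ± 0.08), TLN1 (-0.02 ± 0.09), CCND1 (-0.14 ± 0.11) and MYC (0.05 ± 0.07). VCL, vinculin, fell in every line, with responses of -2.14 in HuH-28, beside -2.19 in RBE and -2.74 in SSP-25.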

How the data were processed

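RNA-seq libraries of HuH-28, RBE and SSP-25 with LKB1 or control siRNA were compared, 12 in all. The deposited signal is the authors' normalised reads per kilobase, 1 table of 18815 rows. The study's methods name NextGENe and RefSeq mRNA, whereas TopHat 1.2.0, edgeR and the build hg19/GRCh37 stand in the submitters' processing notes. Nothing read for this work tells which of them gave the table. Read depth is unknown, so no counting intervals were given. Exact zeros numbered 1057 in 7 libraries and 2979 to 3403 in 5, with small fractions in their place elsewhere, so values under 1 were read as low and no change among them was read. Rows were dropped as repeats (23), and 28 rows with dates in place of symbols were not named.

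The 16146 genes that reached a signal of 1 in 2 or more libraries were fitted as log2(signal + 0.5) over 6 groups with limma 3.58.1 in R 4.3.3, with a trend of variance on mean level, and p-values were adjusted over all genes by Benjamini and Hochberg's method. The pseudocount understates changes of low genes. With 2 libraries against 2, an exact test cannot go below p = 0.33, so all p-values rest on limma's estimate of the spread. It joins the pooled spread of 6 residual degrees of freedom with a prior from all genes, worth 3.71 degrees of freedom. The fit was also run on simulated data, with 1 spread for each gene over all 12 libraries and no pairing. The real HuH-28 libraries spread more and were paired, so that run does not give the error rate for these data. Named genes were the largest differences of each class, up to 3 members of each of 53 lists by smallest p, STK11 and the genes the study named, a few of which are not reported here. The members and lists were chosen with earlier results of these data known. Alternatives were other pseudocounts, filters, scalings, a fit without trend, replicate blocks, weights by line (chosen after seeing the data), each other line alone and each library left out. The correlation of same-numbered deviations was 0.431 within HuH-28 and -0.055 to 0.073 in the other pairs of groups, so the replicate numbers paired the HuH-28 libraries but not those of RBE or SSP-25, and the fit without a block was kept. Promoters came from RefSeq, GRCh38.p14.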

Additional observations from a re-analysis of the deposited data

Results flagged for a closer look

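In the following genes the response to LKB1 siRNA differed between HuH-28 and the other lines by limma's interaction test and had opposite signs, each past the test, in HuH-28 and in both RBE and SSP-25. Those lower in HuH-28, by the difference on the log2 scale, were GPD1 (-3.08), EPHA4 (-2.90), LOC283403 (-2.73), TOX (-2.60), DIO2 (-2.57), B3GNT8 (-2.57), AKAP12 (-2.04), KITLG (-1.43), DUSP16 (-0.90), MMP14 (-0.90) and CCNE1 (-0.70). Those higher in HuH-28 were CTNNBIP1 (0.55), BLVRA (0.59), EZR (0.60), PEX16 (0.65), NDRG1 (0.68), AQP3 (1.71) and CALB2 (1.79). Of the 11 lower genes, GPD1, LOC283403, DIO2 and B3GNT8 were not detected in all 3 lines, and LOC283403 was under 1 in every HuH-28 library, where no change can be read. GPD1 and B3GNT8 were under 1 in HuH-28 with LKB1 siRNA and in SSP-25 with control siRNA, and DIO2 in RBE with control siRNA. The sizes of the differences of these genes cannot be read. Groups of 2 libraries are too small to look for single libraries far from the rest.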

How the results depend on the processing

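Of 109 named genes whose difference passed, 28 did not pass under 1 or more alternatives, 13 of them with weights by line, and CD24 alone turned its sign, to 0.0754 against RBE alone. Counts were more sensitive. A pseudocount of 10 gave 51 genes called higher, 70 called lower, 58 apart and lower and 17 absent in HuH-28, and a pseudocount of 0.1 gave 32 apart and higher. A mean signal of at least 20 left 67 called higher, 176 called lower, 34 apart and higher and 17 found in HuH-28 alone, and one of at least 5 left 22 of the last kind. Weights by line gave 56 and 154 called, 24 and 86 apart, 5 opposite and up, 25 absent and 18 alone. Genes opposite and up in HuH-28 were 19 with median centring and 7 without the trend. Against RBE alone 231 genes were called higher. Quantile normalization gave 187 called higher and 219 lower, the median difference of YAP and TAZ targets became -0.172 and that of ATF4 targets -0.029, and with a pseudocount of 10 the TGF-β list had -0.154. The replicate block within each line, where the numbers paired the libraries in HuH-28 alone, gave 39 opposite and up and 62 opposite and down, and a block over all lines gave 132 called higher and 305 lower.

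Leaving out 1 library at a time, with the lone library of its group assumed to vary like the others, gave 94 (without HuH-28 control siRNA replicate 1) to 149 called higher, 222 to 290 called lower, 22 to 66 apart and higher, 84 to 150 apart and lower, 4 to 14 opposite and up, 16 to 37 opposite and down, 25 to 36 absent and 13 to 49 alone. The cause of these shifts was not tested.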

Other observations

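Some lists not described above held single genes that differed, at counts to be read against 8.02% lower and 5.83% higher over all genes. Of 25 Notch components and targets 3 were lower and 2 higher in HuH-28. HES1, a repressor induced by Notch, averaged 276 ± 14.8 in HuH-28 with LKB1 siRNA and 194 ± 2.46 with control siRNA (SD, n = 2 each) and responded by 0.51, beside -0.15 in RBE and -0.17 in SSP-25 (difference 0.67 ± 0.08, limma adjusted p = 0.00127). JAG1, a Notch ligand, went the other way, with 0.05 in HuH-28, beside 0.58 in RBE and 0.36 in SSP-25 (difference -0.42 ± 0.07, adjusted p = 0.00759). RBPJ, the DNA-binding partner of Notch, rose in all lines and least in HuH-28 (0.66, against 1.31 in RBE and 1.44 in SSP-25, adjusted p of the difference = 0.00262). In the BCL2 family 5 of 19 were lower and 2 higher, and PMAIP1, the death-promoting NOXA, responded by -0.19 in HuH-28, against 0.78 in RBE and 0.49 in SSP-25 (adjusted p = 0.00249).

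Of 45 autophagy and lysosome genes 4 were lower and 3 higher. ULK1, the kinase that starts autophagy and a target of AMPK, rose by 0.39 in HuH-28, beside 1.13 in RBE and 0.66 in SSP-25 (difference -0.50 ± 0.10, adjusted p = 0.0106), and ATG5, of the conjugation step, fell least in HuH-28 (-0.24, -0.66 and -0.80, adjusted p = 0.0075). CTGF, a matricellular YAP target, responded by -0.05 in HuH-28, against -0.57 in RBE and -0.52 in SSP-25 (adjusted p = 0.00443), against the lean of its list. Of 37 amino acid response and ATF4 targets 7 were higher and 5 lower. Across the 16146 genes, which are not independent replicates, the response of HuH-28 had a Pearson r of 0.37 with that of RBE and 0.39 with that of SSP-25, and RBE had 0.40 with SSP-25.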
